A study of Mus musculus with 2 samples.

Results

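Heat shock proteins and molecular chaperones help other proteins fold, keep damaged proteins from clumping and hand those that cannot be rescued to degradation. HSP70 proteins bind exposed stretches of unfolded protein in a cycle driven by ATP, which J-domain proteins (the Dnaja, Dnajb and Dnajc families) start and nucleotide exchange factors (HSP110 and BAG proteins) reset, while HSP90 and the chaperonins finish particular clients. Heat shock factors, foremost HSF1, switch on the inducible genes under stress, and in macrophages the endoplasmic reticulum form of HSP90, Hsp90b1, is known for folding Toll-like receptors.

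The genes described here were the 96 genes on the array whose names begin with Hspa, Hspb, Hspd, Hspe, Hsph, Hsp90, Dnaja, Dnajb, Dnajc or Hsf, with Bag or Cct followed by a digit, or are Tcp1. They were chosen by name and not by their values, though with earlier results of these data known. They are 96 of the 34650 gene names on the array. They were represented by 139 probes, and 73 of the genes (104 probes) were well above background on both arrays. The 2 samples were bone marrow-derived macrophages, grown from mouse marrow for 5 days in M-CSF, the macrophage growth factor, and then treated with LPS, a bacterial cell wall component, at 100 ng/ml for 5 h. One preparation was c-Maf-/-, without the transcription factor c-Maf, and the other was c-Maf+/-, with 1 working copy, so the comparison is of none against 1 copy and no wild-type cells entered it. The labels give neither the way in which the alleles were made nor the number of animals, and neither preparation was left without LPS.

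Each genotype was measured on 1 one-colour Agilent array, both on 1 slide, so no test between genotypes was possible and every difference is between these 2 arrays. All differences are log2 of c-Maf-/- over c-Maf+/-, after each array was scaled to its 75th percentile, and a signal is the deposited processed intensity, which is comparable between arrays for 1 probe but not between probes. A difference is called here when it is at least 1.5-fold, a log2 value of 0.58. Among the 222 probes printed at least 8 times, the median SD between spots was 0.07, and among 3445 genes with at least 2 probes the median SD between probes was 0.09 (95th percentile 0.48). These spreads are technical and say nothing about the spread between cultures or animals.

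The labels were checked first. The brighter of the probes for Maf, the gene of c-Maf, was dim in c-Maf-/- macrophages (signal 12.6) and bright in c-Maf+/- macrophages (15101), a difference of at least 636-fold. The macrophage markers were present on both arrays, with 10 of 11 names measured (Adgre1 stands under its older name Emr1), a median difference of 0.01 and summed signals of 285001 in c-Maf-/-, against 249696 in c-Maf+/-. Csf1r, the M-CSF receptor, had mean signals of 12559.8 in c-Maf-/-, against 12615 in c-Maf+/-. Neutrophil markers were weaker on the c-Maf-/- array, with a median of -0.82 over 10 of 11 markers, 9 of them below 0 and Retnlg not measured on both arrays, and summed signals of 55707 in c-Maf-/-, against 100206 in c-Maf+/-. Dendritic cell markers had a median of -0.75 (6 of 9 measured; summed signals 2577 in c-Maf-/- and 3080.1 in c-Maf+/-, with Clec9a, Xcr1 and Dpp4 not measured on both arrays), and erythroid and megakaryocyte markers one of 0.75 (6 of 10; 57529.6 in c-Maf-/-, against 58812 in c-Maf+/-, with Hbb-b1, Klf1 and Alas2 among those not measured). The last sum is nearly all Pf4 (-0.07), while the other 5 measured markers were each at least 1.5-fold higher in c-Maf-/-, from 0.71 for Gata1 to 0.91 for Gp9. Lymphocyte markers had a median of -0.09 (6 of 9; 5585 in c-Maf-/-, against 6294 in c-Maf+/-, with Ms4a1 and Cd8a among those not measured) and stromal and endothelial markers one of -0.40 (5 of 8; 2769 in c-Maf-/-, against 3644 in c-Maf+/-, without Pdgfra, Cdh5 and Lum). Xist, the transcript of the inactive X chromosome, was not well above background in c-Maf-/- (signal 5.43 for its brighter probe) but was in c-Maf+/- (263), while the Y-linked Ddx3y was on both (1068 in c-Maf-/- and 743 in c-Maf+/-). The part of these cell type and sex-linked differences in the chaperone values was not tested, and in bulk RNA fewer cells of a type and less RNA per cell cannot be told apart.

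Sequences are shown for the probes of some called genes, for a probe pair that is alike, for a gene whose probes disagree and for the promoter elements that mark the inducible and endoplasmic reticulum chaperones. Probe sequences come from the deposited files, with mm9 coordinates, and are written as the transcript reads. The first pair lies in neighbouring genes, Hspa1a on the minus strand at chr17:35107117-35107176 and Hspa1l on the plus strand at chr17:35115629-35115688. Capitals mark the bases that are the same in both when they are aligned at an offset of 3 bases.
Hspa1a probe: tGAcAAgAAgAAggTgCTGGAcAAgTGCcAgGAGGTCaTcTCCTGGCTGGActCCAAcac
Hspa1l probe: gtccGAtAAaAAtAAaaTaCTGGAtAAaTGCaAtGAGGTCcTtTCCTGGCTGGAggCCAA
Over the 57 bases that overlap, 42 were identical (73.7%), the closest match between probes of different member genes, and the next pair reached 58.8%. The Hspa1a probe is also annotated to Hspa1b, its near-identical inducible copy, for which the array had no probe of its own name. The Hspa1a signal may therefore come from both copies. Whether the Hspa1l probe also takes up Hspa1a transcripts was not tested.

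Both Hsph1 probes lie on the minus strand of chromosome 5, at chr5:150419744-150419803 and chr5:150420110-150420169. The Dnajb4 probe lies on the minus strand at chr3:151849464-151849523.
Hsph1 probe, first: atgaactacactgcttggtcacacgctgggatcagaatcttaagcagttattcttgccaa
Hsph1 probe, other: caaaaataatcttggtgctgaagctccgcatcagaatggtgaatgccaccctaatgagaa
Dnajb4 probe: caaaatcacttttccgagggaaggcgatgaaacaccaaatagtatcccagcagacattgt
The Hspb1 probe, at chr5:136365366-136365425 on the plus strand, holds the polyadenylation signal AATAAA, given in capitals within a stretch of 30 of its 60 bases.
Hspb1 probe, stretch: ctgtttttctcaAATAAAagttgcaagcta
Whether this signal places the probe at the 3′ end of the Hspb1 transcript was not checked against an annotation. The probe is the only one behind the lowest value among the members.

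The heat shock element, bound by heat shock factors, is built from alternating units of GAA and TTC. It was searched for on both strands of RefSeq promoters (250 bases before to 50 after a start, build GRCm38.p6), as GAANNTTC or TTCNNGAA for a pair of units and as 3 alternating units. Promoters are shown for some of the genes described, with the element in capitals.
Hspe1 promoter, chr1:55088039-55088096, plus strand: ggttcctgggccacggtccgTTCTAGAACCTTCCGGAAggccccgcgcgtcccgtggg
Hsph1 promoter, chr5:149636280-149636308, minus strand: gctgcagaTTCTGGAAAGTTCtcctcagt
Hspa1a promoter, chr17:34972233-34972280, minus strand: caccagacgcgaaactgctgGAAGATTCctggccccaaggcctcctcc
Dnajb4 promoter, chr3:152193846-152193879, minus strand: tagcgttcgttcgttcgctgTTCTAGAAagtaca
Hspb1 promoter, chr5:135887782-135887849, plus strand: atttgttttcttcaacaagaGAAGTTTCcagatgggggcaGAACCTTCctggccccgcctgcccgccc
The Hspe1 element runs from base -89 to -72 of the Hspe1 start and, read on the other strand, from -144 to -127 of an Hspd1 start, so the divergent chaperonin genes share it. The Hsph1 element lies after both Hsph1 starts in the table, from base 16 to 28 of one and from 37 to 49 of the other. Of the 78 member genes in the promoter table, 21 (26.9%) held a pair of units, against 4587 of 27025 genes in the table (17.0%), and 4 members (5.13%) held 3 units, against 179 genes (0.662%). The 4 were Hsph1, Hspd1, Hspe1 and Dnajb6.

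The endoplasmic reticulum stress element is CCAAT, 9 bases and CCACG, and it was found in 3 members (3.85%), against 37 of all genes (0.137%).
Hspa5 promoter, chr2:34772005-34772063, plus strand: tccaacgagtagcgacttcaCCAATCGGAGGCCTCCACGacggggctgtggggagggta
Hsp90b1 promoter, chr10:86705513-86705676, minus strand: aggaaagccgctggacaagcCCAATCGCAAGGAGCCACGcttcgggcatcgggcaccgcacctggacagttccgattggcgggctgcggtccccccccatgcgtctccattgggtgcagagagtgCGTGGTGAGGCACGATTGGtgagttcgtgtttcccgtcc
Dnajc3 promoter, chr14:118937807-118937865, plus strand: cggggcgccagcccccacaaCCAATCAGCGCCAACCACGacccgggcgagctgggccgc
A match is a string of letters and not a measured binding site. Their genes' values are given with the classes to which they belong.

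Across the 73 measured members the differences were small. Their median was 0.08 (SD 0.36 across genes), with 46 members above 0 and 27 below. Over all 12412 genes with a RefSeq symbol measured on both arrays the median was -0.02 (SD 0.41), and 46.2% of them were above 0, against 63.0% of the members. Scaling the arrays to the spike-in transcripts raised every value by 0.15 and the all-gene median to 0.12. Negative values nearer to 0 than this shift thus turned positive, while positive values kept their sign under it. In the c-Maf-/- preparation 6 members were at least 1.5-fold higher, which is 8.22% of the measured members, and 5.37% of all genes were. A further 2 members (2.74%) were at least 1.5-fold lower, against 6.5% of all genes. These shares are close to the background and set the members apart in neither direction. At 2-fold, 1 member was higher (1.37%, against 1.42% of all genes) and 1 was lower (1.37%, against 1.74% of all genes). The called genes were Dnajb4, Bag2, Hsph1, Hspa1a, Dnajb2 and Hspa1l on the higher side and Hspb1 and Dnaja2 on the lower side.

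**Figure D1:**
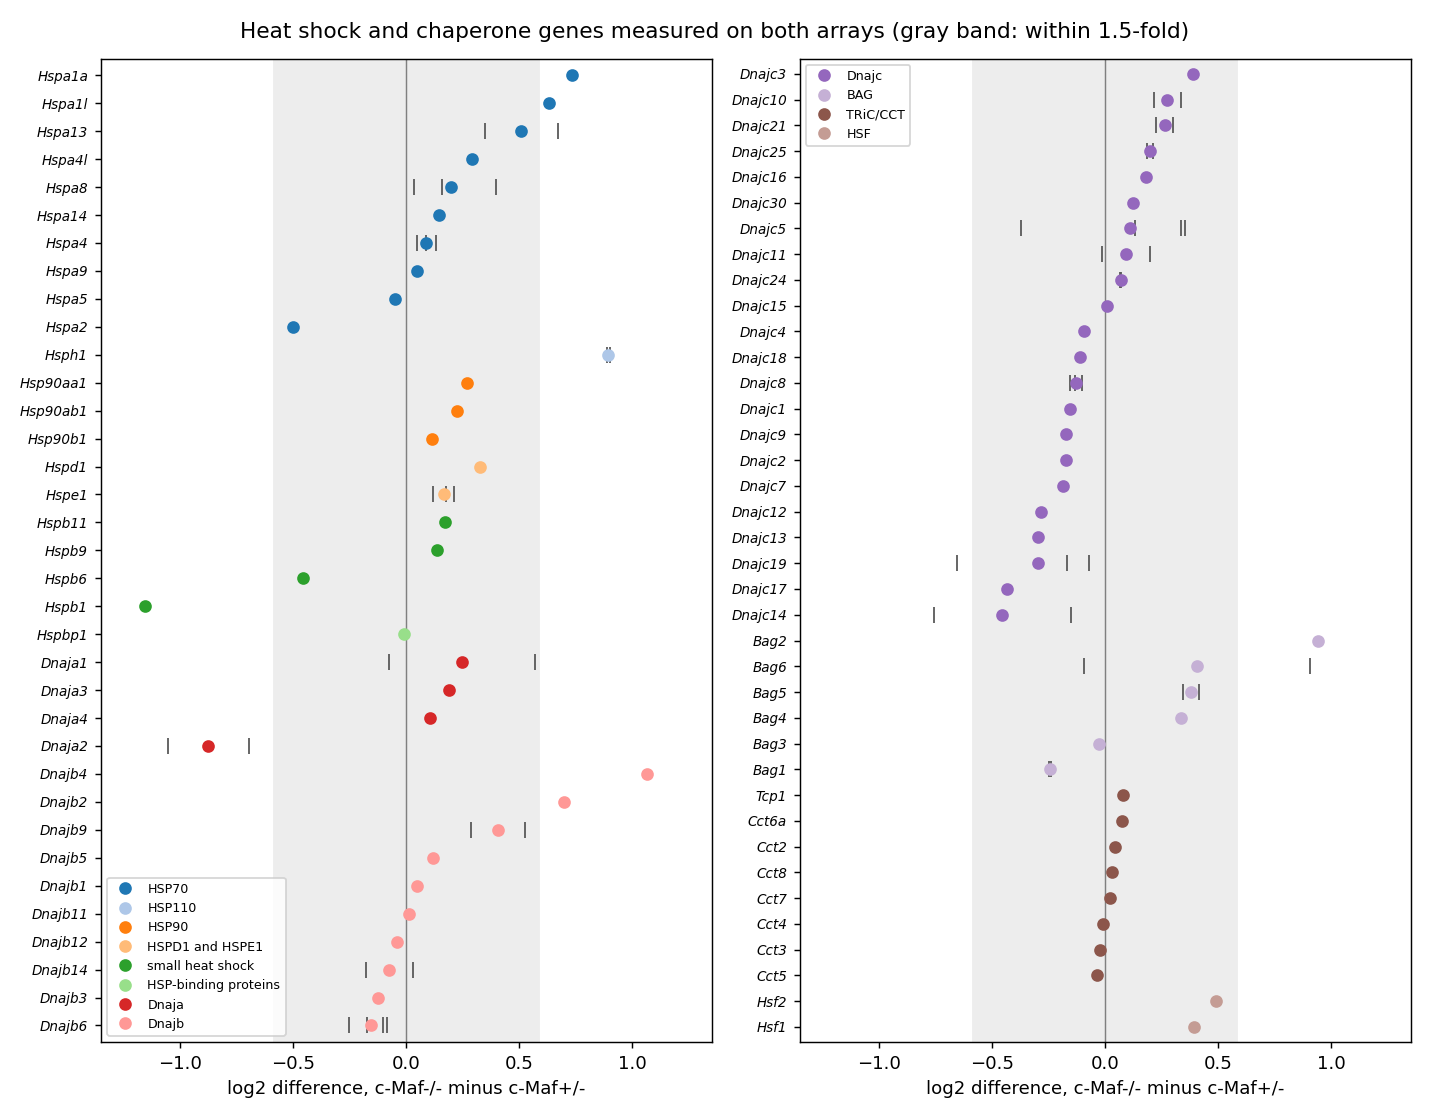
Each point is the log2 difference (c-Maf-/- minus c-Maf+/-) of 1 of the 73 measured heat shock and chaperone genes, coloured by class, and ticks are single probes of genes with several. Points outside the gray 1.5-fold band are the 6 higher and 2 lower genes, and the 8 TRiC/CCT genes sit together near 0.

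Hspa1a, the main inducible HSP70, had signals of 12009.7 in c-Maf-/- macrophages, against 7099 in c-Maf+/- macrophages, a log2 difference of 0.73 (1.66-fold). Hspa1l, its neighbour, known mainly from testis, had signals of 144 in c-Maf-/-, against 91.0 in c-Maf+/- (log2 difference 0.63, 1.55-fold). The c-Maf-/- signal was the higher for both, at percentiles 96.8 and 95.5 of all genes, but Hspa1l was under 1.5-fold with normexp (0.43) and with no background subtracted (0.50). Hsph1, the HSP110 protein that resets HSP70 by exchanging its nucleotide, had mean signals of 4049 in c-Maf-/-, against 2141 in c-Maf+/- (0.89, 1.86-fold). The probes of Hsph1 gave 0.90 and 0.89, so this call rests on 2 separate stretches of the transcript.

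The other HSP70 genes lay closer to 0. Of all 10 measured HSP70 genes, Hspa1a and Hspa1l included, 8 were above 0, and the median of the 10 was 0.17. Hspa8, the constitutive HSP70 of the cytosol, averaged 71885 in c-Maf-/- and 61615 in c-Maf+/- (0.20), and its probes ran from 0.04 to 0.40. Hspa5 (BiP), the HSP70 of the endoplasmic reticulum, had signals of 109736 in c-Maf-/-, against 111677 in c-Maf+/- (-0.05). Hspa9 (mortalin), the HSP70 of mitochondria, had 5308 in c-Maf-/- and 5050.1 in c-Maf+/- (0.05). The constitutive HSP70 of each compartment thus differed by 0.20 or less. Of the remaining members, Hspa4 had 0.09, Hspa14 had 0.15 and Hspa4l, a relative of Hsph1 despite its name, had 0.29. Hspa13, a microsomal HSP70-like protein, was the highest of those below the threshold, with mean signals of 545 in c-Maf-/-, against 377 in c-Maf+/- (0.51), its dimmer probe at 0.67 and its brighter at 0.35. Hspa2, the testis-enriched HSP70, was the lowest of the class, with 277 in c-Maf-/- and 384 in c-Maf+/- (-0.50).

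HSP90 completes the folding of kinases and receptors. All 3 HSP90 genes were above 0 and none reached 1.5-fold (median 0.22). Hsp90aa1, the inducible cytosolic form, had signals of 30653 in c-Maf-/-, against 24986 in c-Maf+/- (0.27). Hsp90ab1, the constitutive cytosolic form, had 108421 in c-Maf-/- and 91193 in c-Maf+/- (0.22), and Hsp90b1, the endoplasmic reticulum form, had 50461 in c-Maf-/- and 45811 in c-Maf+/- (0.11). The inducible and constitutive cytosolic forms thus differed between genotypes by nearly the same amount. The mitochondrial chaperonin pair, whose genes share the promoter element printed above, had 15416 in c-Maf-/- and 12070.0 in c-Maf+/- for Hspd1 (0.33) and means of 8855 in c-Maf-/-, against 7738 in c-Maf+/- for Hspe1 (0.17 over 3 probes). Both were above 0 and within 1.5-fold.

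Small heat shock proteins hold unfolding proteins without using ATP, and this class held the lowest value of all members. Hspb1 (HSP27 in human), known for stabilising actin and for induction by heat, had signals of 617 in c-Maf-/-, against 1352 in c-Maf+/- macrophages, a difference of -1.16 (2.23-fold lower), at percentile 1.12 of all genes. Hspb6, the HSP20 of muscle, had 282 in c-Maf-/- and 379 in c-Maf+/- (-0.45). Hspb9, a testis form, had a value of 0.13 and Hspb11, which despite its name is a subunit of the intraflagellar transport complex, one of 0.17. Of the 8 genes in the class, 4 were measured and their median was -0.16, which turned to 0.10 when dim probes were kept. Among related genes outside the name rule, Cryab, the alpha-crystallin small heat shock protein, had 247 in c-Maf-/- and 197 in c-Maf+/- (0.30), while Cryaa and Odf1 were not measured on both arrays. Hspb1 was thus 1.5-fold or more apart alone in its class, and it holds a 2-unit heat shock element in its promoter as Hspa1a does, with a difference of the opposite sign.

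J-domain proteins stimulate the ATPase of HSP70 and choose its clients, and 36 of the 45 J-domain genes were measured, with a median of 0.01. The highest and the second lowest value among all members were both in this class. Dnajb4, a cytosolic partner of HSP70, had signals of 424 in c-Maf-/-, against 199.5 in c-Maf+/- (1.06, 2.09-fold), at percentile 98.8 of all genes. Dnajb2, which carries ubiquitin-binding motifs and guides clients to the proteasome, had 438 in c-Maf-/-, against 265 in c-Maf+/- (0.70, 1.62-fold). Dnajb4 was under 2-fold with normexp (0.86), and Dnajb2 under 1.5-fold when dim probes were kept (0.51). On the other side, Dnaja2, a cytosolic partner of HSP70 and a member of the class A J-domain proteins, had mean signals of 2971 in c-Maf-/-, against 5351 in c-Maf+/- (a log2 difference of -0.87, or 1.83-fold lower). Its probes, at chr8:88061548-88061607 and chr8:88062657-88062716 on the minus strand, gave -1.05 and -0.69, so both were past 1.5-fold.

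Dnaja1, also of class A, had a value of 0.25 that joined probes of opposite sign. Its bright probe had 77293 in c-Maf-/- and 80026 in c-Maf+/- (-0.08) and its dim probe 152 in c-Maf-/- and 100.6 in c-Maf+/- (0.57). No direction was therefore read for Dnaja1. Dnaja3, the mitochondrial class A member, had 0.19 and Dnaja4 had 0.10. Dnajb1 (HSP40), the best known heat-inducible J-domain protein, had signals of 23367 in c-Maf-/-, against 22239 in c-Maf+/- (0.05). The main inducible HSP40 was thus nearly equal while the main inducible HSP70 was 1.66-fold higher in c-Maf-/-. The rest of the Dnajb class ran from -0.15 for Dnajb6, a suppressor of protein aggregation with all 4 probes below 0 and 3 heat shock units in its promoter, to 0.41 for Dnajb9. Between them lay Dnajb3 (-0.12), Dnajb14 (-0.07), Dnajb12 (-0.04), Dnajb11 (0.01) and Dnajb5 (0.12).

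The Dnajc class holds J-domain proteins with dedicated tasks, and none of its 22 measured genes reached 1.5-fold. With the brightest probe per gene Dnajc14 (-0.76) and Dnajc19 (-0.65) did, and when dim probes were kept Dnajc21 did (0.67), as did Dnajc28 and Dnajc22, which were otherwise not measured. Its median was -0.10, with 10 above 0 and 12 below, and spike-in scaling turned that median to 0.04. Dnajc3 (p58IPK), an inhibitor of eIF2-alpha kinases in endoplasmic reticulum stress, was the highest, with 1339.6 in c-Maf-/- and 1006 in c-Maf+/- (0.39). Dnajc14 was the lowest, with means of 93.8 in c-Maf-/-, against 126 in c-Maf+/- (-0.45), from probes at -0.15 and -0.76. The lower values otherwise belonged to Dnajc17 (-0.43), the mitochondrial import factor Dnajc19 (-0.30), the endosomal Dnajc13 (-0.30), Dnajc12 (-0.28), the cytosolic adaptor Dnajc7 (-0.19), the ribosome-associated Dnajc2 (-0.17), the histone chaperone Dnajc9 (-0.17), Dnajc1 (-0.16), the splicing-linked Dnajc8 (-0.13), Dnajc18 (-0.11) and Dnajc4 (-0.09). Above 0 were Dnajc15 (0.01), Dnajc24 (0.07), Dnajc11 (0.09), the synaptic vesicle protein Dnajc5 (0.11), Dnajc30 (0.12), Dnajc16 (0.18), Dnajc25 (0.20), Dnajc21 (0.26) and the endoplasmic reticulum reductase Dnajc10 (0.28). For Dnajc19 the probe farther than 15 kb from the other 2 gave -0.65 and those gave -0.07 and -0.17, so most of its value came from 1 probe. Probes of both signs also lay behind Dnajc5 (-0.37 to 0.35 over 4 probes), Dnajc11 (-0.01 and 0.20) and Dnajb14 (-0.18 and 0.03), so no direction was read for these genes.

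**Figure D2:**
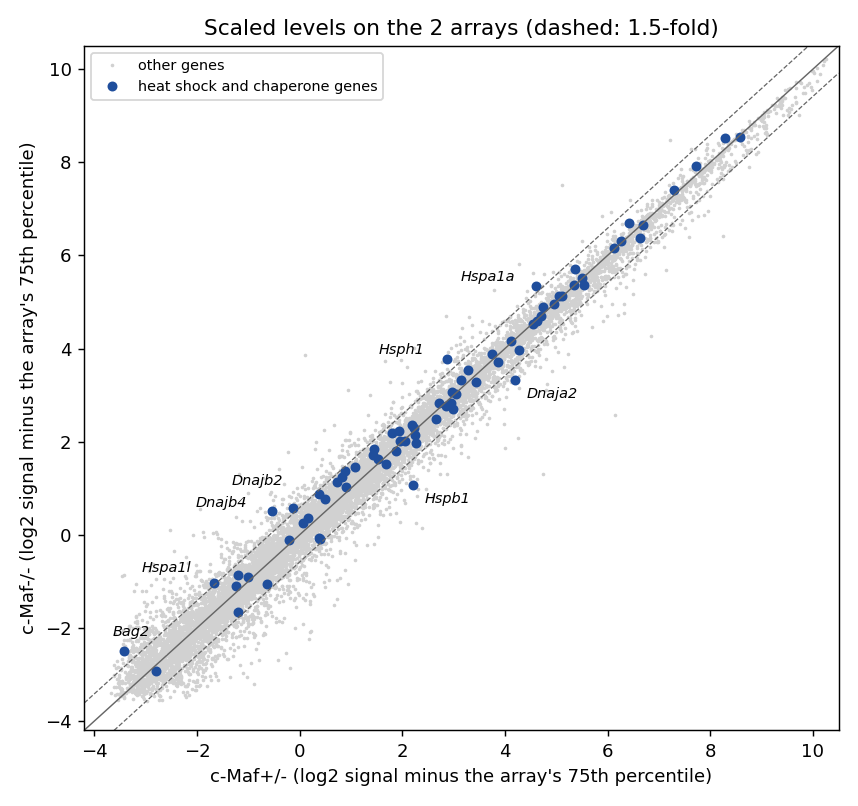
Scaled log2 level of each gene on the c-Maf-/- array (vertical axis) against the c-Maf+/- array (horizontal axis), with the 73 heat shock and chaperone genes in blue, other genes in gray and dashed lines at 1.5-fold. The 8 genes outside the lines are named, and Bag2 and Hspa1l lie among the dim genes, where the gray cloud is widest.

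BAG proteins bind HSP70 and make it release its client. The class had a median of 0.36 over its 6 genes, with 4 above 0, but 0.15 with the brightest probe per gene, 0.19 with normexp and 0.23 with no background subtracted, and its highest value came from a dim probe. Bag2, which restrains the ubiquitin ligase Stub1 (CHIP), had signals of 52.8 in c-Maf-/-, against 27.0 in c-Maf+/- (0.94, 1.92-fold), close to the lowest signal well above background, which was 24.2 for c-Maf-/- and 22.3 for c-Maf+/-. With normexp background correction Bag2 had 0.42, and it was also under 1.5-fold without background subtraction. Bag3, the HSF1-induced cochaperone of chaperone-assisted autophagy, had 7182 in c-Maf-/- and 7179 in c-Maf+/- (-0.03), and Bag1, which links HSP70 to the proteasome, had means of 24669 in c-Maf-/-, against 28689 in c-Maf+/- (-0.24 over 2 probes). Bag3 was thus nearly equal on the arrays. Bag4, a silencer of death receptors, had 0.33 and Bag5 had 0.38 over 2 probes.

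Bag6, which guides tail-anchored and defective proteins, shows how 1 probe can set a gene's value. Its value was 0.41, from a probe on the plus strand of chromosome 17 with 7193 in c-Maf-/- and 7542 in c-Maf+/- (-0.09, chr17:35284094-35284153) and a dim probe on the opposite strand with 67.7 in c-Maf-/- and 35.5 in c-Maf+/- (0.90, chr17:35272017-35272076).
Bag6 probe, plus strand: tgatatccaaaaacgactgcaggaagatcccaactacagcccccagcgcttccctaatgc
This probe reads an open frame through all 60 bases, while the one on the opposite strand holds a stop codon in every frame. The size of the brighter probe's difference, 0.09 below 0, was close to the median SD of 0.07 between spots.

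TRiC, the cytosolic chaperonin made of Tcp1 and the Cct subunits, folds actin and tubulin inside a closed ring. Its 8 measured subunits lay within 0.12 of each other, and their SD of 0.04 across genes was the smallest of any class with at least 2 measured genes. Tcp1 had signals of 10350.5 in c-Maf-/-, against 9613 in c-Maf+/- (0.08), and Cct5 had 29811 in c-Maf-/- and 30023 in c-Maf+/- (-0.04). These were the ends of the range, and every subunit had 1 probe. Cct3 had 6838 in c-Maf-/- and 6814 in c-Maf+/- (-0.02), and Cct4 had 7641 in c-Maf-/- and 7553 in c-Maf+/- (-0.01). Cct7 had 13547 in c-Maf-/- and 13115 in c-Maf+/- (0.02), and Cct8 had 12281 in c-Maf-/- and 11817 in c-Maf+/- (0.03). Cct2 had 21219.9 in c-Maf-/- and 20204 in c-Maf+/- (0.05), and Cct6a had 1462 in c-Maf-/- and 1364 in c-Maf+/- (0.07). All lay within 0.08 of 0, as 25.6% of all genes did, and as 34.0% of the 4308 genes at least as bright as the dimmest subunit did. Over 11 ways of processing their values stayed from -0.04 to 0.23 and each subunit stayed within 1.5-fold. A list of prefoldin, TRiC cofactor and tubulin cofactor genes had a median of -0.02 over 13 genes, which 6 of 10 other settings turned above 0. Tbcc, a tubulin cofactor, was highest among them (0.39) and Pfdn1 lowest (-0.16).

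Heat shock factors drive the inducible genes, and 2 of the 7 genes of this name were measured. Hsf1, the main stress-responsive factor, had signals of 1054 in c-Maf-/-, against 788 in c-Maf+/- (0.39). Hsf2, which binds the same elements and acts in development, had 766 in c-Maf-/- and 535 in c-Maf+/- (0.49). Both were above 0 and within 1.5-fold, at percentiles 89.5 and 92.7 of all genes, but with spike-in scaling Hsf2 passed 1.5-fold (0.64), as did Hspa13. RNA level does not measure HSF1 activity, which depends on trimer formation and nuclear entry.

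Members that hold a 2-unit heat shock element had a median of 0.11 over 15 measured genes, and those without it one of 0.04 over 44. The 18 members without a RefSeq promoter here, among them Hsp90aa1, Hsp90ab1, Hspa8 and Hsf1, are in neither group. The 4 members with 3 units had values from -0.15 (Dnajb6) to 0.89 (Hsph1). The 3 with an endoplasmic reticulum stress element had -0.05 (Hspa5), 0.11 (Hsp90b1) and 0.39 (Dnajc3). Genes with the same printed element thus differed between themselves in both size and sign. A list of 21 other genes known to respond to HSF1 or heat, all measured, had a median of 0.04, or -0.10 with the brightest probe per gene. In it Hmox1, the heme-degrading oxygenase, had mean signals of 36092 in c-Maf-/-, against 19470.1 in c-Maf+/- (0.86). The metallothionein gene Mt1 had means of 5954 in c-Maf-/-, against 3611 in c-Maf+/- (0.70, and as low as 0.29 under other processing). The other metallothionein gene of the list, Mt2, had 0.06. On the lower side of the list, Rgs2, a regulator of G protein signalling, had 1540.4 in c-Maf-/- and 4572 in c-Maf+/- (-1.60, and -0.98 at the weakest over the settings). The phosphatase gene Dusp1 had 7757 in c-Maf-/- and 13043 in c-Maf+/- (-0.78). Ahsa1, the activator of the HSP90 ATPase, had 24940.4 in c-Maf-/- and 38917 in c-Maf+/- (-0.67). Past 1.5-fold, 2 genes of this list (9.52%, against 5.37% of all genes) were higher and 3 (14.3%, against 6.5%) lower, and with 21 genes these shares rest on few genes.

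**Figure D3:**
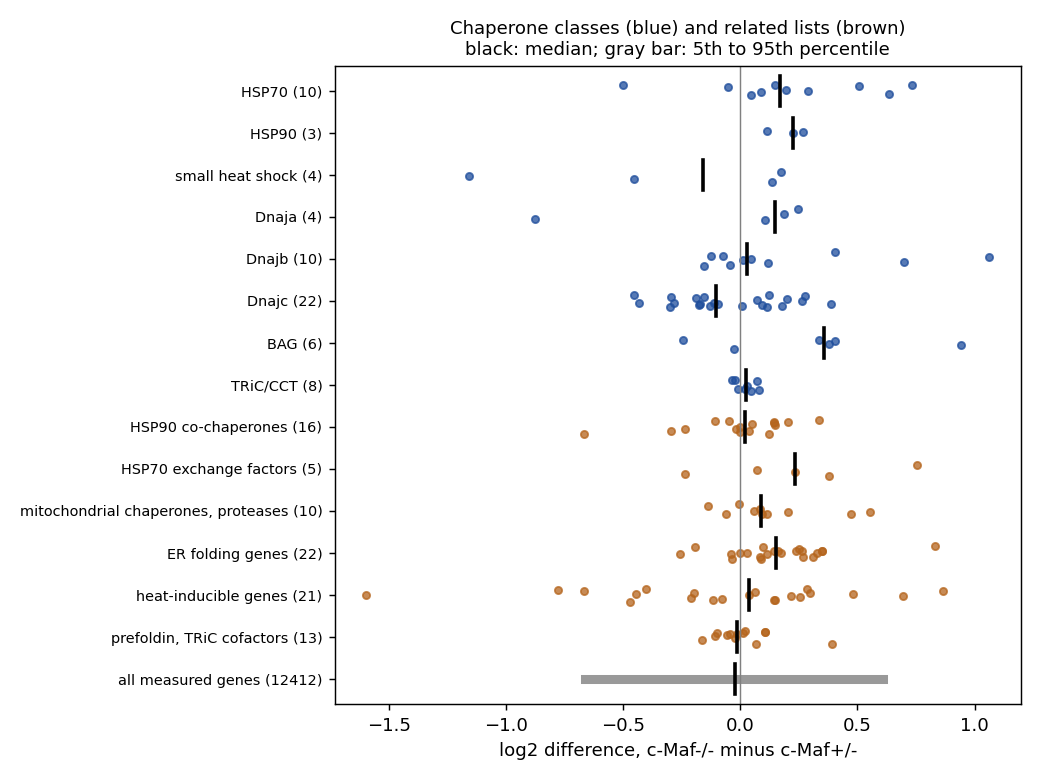
Points are the log2 differences (c-Maf-/- minus c-Maf+/-) of single genes, with the number measured in brackets, for chaperone classes (blue) and for related lists outside the name rule (brown), and black marks are medians. The gray bar spans the 5th to 95th percentile of all 12412 genes, from -0.66 to 0.61, and most chaperone genes fall inside it.

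Partners of HSP90 and HSP70 outside the name rule were also compared. The 16 measured HSP90 cochaperones had a median of 0.02, with Ahsa1 as the 1 called gene, on the lower side (6.25%, against 6.5% of all genes). The cyclophilin Ppid was highest, at means of 755 in c-Maf-/-, against 587 in c-Maf+/- (0.34). The 5 measured HSP70 exchange and regulatory factors had a median of 0.23, or 0.087 when dim probes were kept. Among them Grpel2, the mitochondrial exchange factor, had means of 154 in c-Maf-/-, against 89.4 in c-Maf+/- (0.76, and as low as 0.41 under other processing). Sil1, the exchange factor for BiP, had 2861 in c-Maf-/- and 3309.8 in c-Maf+/- (-0.24). The exchange factor genes thus went both ways, with only Grpel2 past 1.5-fold.

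By compartment, some members were grouped here under the endoplasmic reticulum and others under mitochondria, without comparing the groups. The 11 members of the endoplasmic reticulum group had a median of 0.11, with 7 above 0, and ran from Dnajc1 (-0.16) to Hspa13. Dnajb9 (ERdj4), which helps degrade misfolded secretory proteins, had means of 649.9 in c-Maf-/-, against 482 in c-Maf+/- (0.41), but 1 of its 2 probes is also annotated to the predicted gene Gm6568. A list of 22 other endoplasmic reticulum folding genes had a median of 0.15, with 17 above 0. Only Ero1l, the oxidase that recharges disulfide formation, was past 1.5-fold in that list (4.55%, against 5.37% of all genes higher). It had 590.3 in c-Maf-/- and 326 in c-Maf+/- (0.83), and Erp29 was lowest (-0.26). The 8 members of the mitochondrial group had a median of 0.11, with 7 above 0 and Dnajc19 below. Both groups were chosen after the values were seen, so their medians and ends depend on which members were placed in them. Dnajc14 (-0.45), the lowest of the Dnajc class, was in neither. Mitochondrial chaperones and proteases outside the rule had a median of 0.09 over 10 genes, from the protease subunits Spg7 (-0.14) to Afg3l2 (0.55).

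**Figure D4:**
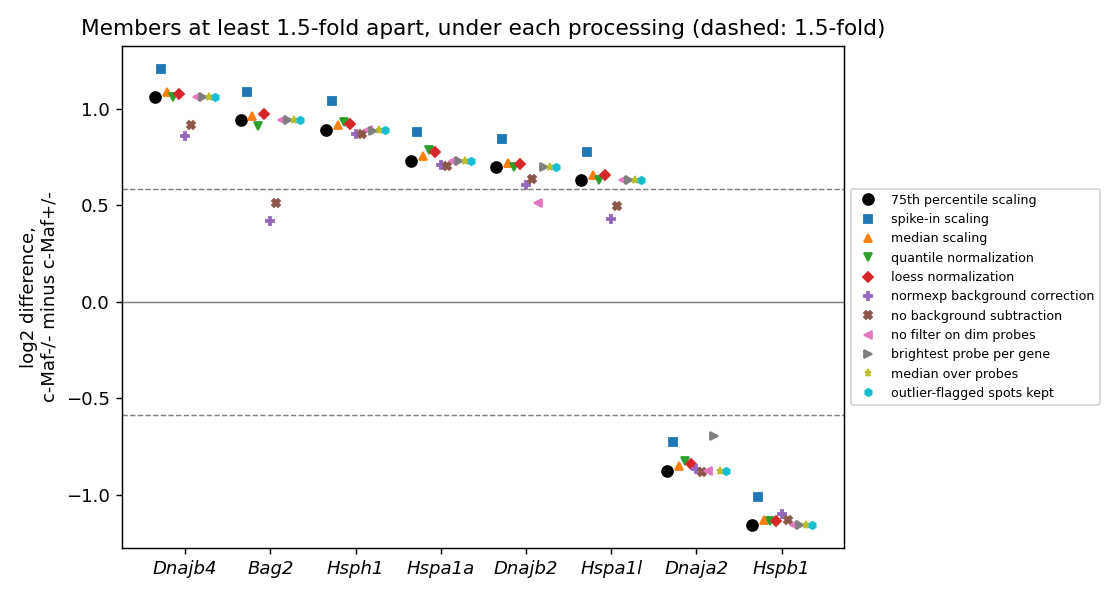
Log2 difference (c-Maf-/- minus c-Maf+/-) of the 8 members at least 1.5-fold apart, each point being 1 of 11 ways of processing the same 2 arrays. The direction is the same for every gene in each of the 11, and Bag2, Hspa1l and Dnajb2 cross the dashed 1.5-fold line in some of them.

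The other 23 members were not well above background on both arrays, and for 21 of them neither array passed. Many are known from other tissues, such as the testis genes Cct6b, Dnajb7, Dnajc5b, Dnajc5g, Hsf2bp, Hsf5 and Hsfy2, the muscle genes Hspb2, Hspb3 and Hspb7, and Dnajc6, the auxilin of neurons. The rest were Cct8l1, Dnajb13, Dnajc22, Dnajc27, Dnajc28, Hsf3, Hspa12a, Hspa12b, Hspb8 and Hspbap1. Hspbp1, an exchange factor for HSP70 that shares the Hspb prefix, was measured and had -0.01. Just outside the detection threshold, Dnajb8 passed in c-Maf-/- only (42.9 in c-Maf-/-, against 19.4 in c-Maf+/-, at least 1.89-fold higher) and Hsf4 in c-Maf+/- only (23.7 in c-Maf-/-, against 25.8 in c-Maf+/-, at least 1.08-fold lower). Just inside it were Bag2 and Dnajb3, and Dnajb3, a testis gene, had 39.1 in c-Maf-/- and 41.9 in c-Maf+/-. Near this threshold a difference of a few signal units is a large fold.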

How the data were processed

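The deposited spot intensities were written by Agilent Feature Extraction 10.7.3.1 (protocol GE1_107_Sep09, array design 028005, build mm9), per the file headers. Per the same headers, the authors' processed signal is background-subtracted within an array and not normalized between arrays. Here each of the 59305 non-control spots was taken as log2 of that intensity minus its array's 75th percentile, a signal of 296 in the c-Maf-/- sample and 291 in the c-Maf+/- sample. Outlier spots (149 and 136) were dropped, saturated spots were 0, and 44.9% of spots (c-Maf-/-) and 45.3% (c-Maf+/-) were well above background. Spots of a probe were averaged, and gene values were means over probes detected in this way in both samples. For a gene detected in 1 sample a bound was computed, from the brighter value and either the detection floor of the dim array or the dim probe's own signal, whichever was higher. Old symbols were matched to RefSeq by accession or symbol. The code was tested on simulated data.

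Members, lists and thresholds were chosen with earlier results of these data known, and the compartment groups after the values were seen. Signals of both arrays are given for members at least 1.5-fold apart, the highest and lowest of each class and a fixed set of well-known genes, and from outside lists for genes past 1.5-fold and the extremes. Alternatives were 4 other scalings (spike-ins, median, quantile, loess), normexp (offset 50) or no background subtraction, no filter, the brightest probe or median over probes, and outlier spots kept. Genes with at least 2 probes were also taken alone, and probes standing apart (another strand, or over 15 kb away) were left out as an alternative chosen after seeing the data. With 1 array per genotype no p-value was computed, and the number of arrays limits the precision. A planned comparison of protein sequences was not made. No annotation of build mm9 was used here, so exons and UTRs are not named. Tools were R 4.3.3 with limma 3.58.1, and Python 3.11.15 with pandas 2.3.3.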

Additional observations from a re-analysis of the deposited data

How the results depend on the processing

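All 8 called members kept their direction under the 10 alternative settings, and Dnajb4, Hsph1, Hspa1a, Hspb1 and Dnaja2 also stayed past 1.5-fold. Bag2 and Hspa1l were under 1.5-fold with normexp and without background subtraction (4 called higher), and Dnajb2 without the filter on dim probes. Spike-in scaling added Hsf2 and Hspa13, for 8 called higher, and dropping the filter added Dnajb8, Dnajc21 and Dnajc28, also for 8. Members at least 1.5-fold lower were 4 without that filter (adding Dnajc22 and Hspa12b) and 4 with the brightest probe per gene (adding Dnajc14 and Dnajc19). Members at least 2-fold higher were 3 with spike-in scaling, 2 without the filter, and 0 with normexp or no background subtraction. Spike-in scaling moved every value by 0.15, to an all-gene median of 0.12. The medians became 0.23 for all members, 0.32 for HSP70, 0.37 for HSP90, -0.014 for small heat shock, 0.29 for Dnaja, 0.17 for Dnajb, 0.0435 for Dnajc, 0.50 for BAG and 0.17 for TRiC. Outside lists then had 0.17 (HSP90 cochaperones), 0.13 (prefoldin), 0.38 (exchange and regulatory factors), 0.23 (mitochondrial), 0.30 (endoplasmic reticulum) and 0.18 (heat-inducible). The members' median exceeded that of all genes by 0.02 without the filter, by 0.07 to 0.12 otherwise. BAG had 0.19 with normexp, 0.23 without background subtraction and 0.15 with the brightest probe, where Dnaja had 0.015 and the heat-inducible list -0.10. Without the filter, small heat shock had 0.10 and exchange and regulatory factors 0.087. Prefoldin had 0.010 with median scaling, 0.053 with quantile, 0.014 with loess, 0.0064 with normexp and 0.0023 without background subtraction. From genes with at least 2 probes alone, Dnaja had -0.31, Dnajb -0.075 and Dnajc 0.093. All genes at least 1.5-fold higher numbered 1098 with spike-ins, 330 with normexp, 388 without background subtraction and 2061 without the filter, and lower 483, 477, 546 and 2073. The cause of these shifts was not tested beyond each setting's construction. Leaving out probes that stand apart kept the counts at 6 and 2. No paired analysis was possible because each genotype has 1 array. Low signals near background limit the dim genes, and no value has a replicate.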
